A study of Mus musculus with 11 samples.

Results

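The semaphorin, ephrin, Slit and netrin families are the classical axon guidance genes, and 71 of them were counted here in sorted epithelial cells of the pubertal mouse mammary gland. They were taken by symbol from the 27179 gene identifiers of the count table, under a rule that holds no threshold on a measured value. The set holds 20 semaphorins, 9 plexins, 2 neuropilins, 9 EphA and 5 EphB receptors, 5 ephrin-A and 3 ephrin-B ligands, 3 Slits, 4 Robo receptors, 4 netrins, 6 netrin receptors and reelin. Of these, 64 passed the filter on low counts and were tested, and Epha5, Epha6, Epha8, Epha10, Ntn5, Dcc and Unc5d did not, with at most 0.17 CPM in any library.

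The study compared terminal end buds (TEBs), the bulbous growing tips of the pubertal ductal tree, with the ducts behind them. RNA-seq was carried out on 11 libraries from E-cadherin-GFP C57BL/6 females aged 5 weeks, whose GFP guided the microdissection of TEBs and ducts. Basal cells were sorted as Lin-CD29+CD24+ cells with low GFP and luminal cells as those with high GFP, where Lin marks blood and endothelial cells. The groups were basal duct, basal TEB and luminal TEB with 3 libraries each and luminal duct with 2, since the authors discarded 1 luminal duct library for its low cell number. All groups carried the same reporter and no treatment, and each library came from a pool of at least 2 mice, so that p-values measure the spread between pools and not between single animals.

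Guidance molecules were named for steering growing axons, and they also act on adhesion and movement in epithelia, vessels and tumors. Semaphorins signal through plexins, with neuropilins as co-receptors for most of the secreted class 3 members. Ephrins are held on the cell surface and bind Eph receptor tyrosine kinases on a neighbouring cell, often with signals running in both directions. Slits bind Robo receptors, netrins bind Dcc, neogenin and Unc5 receptors, and reelin binds the lipoprotein receptors Vldlr and Lrp8. In the mammary gland, netrin-1 with neogenin and Slit with Robo1 are known for roles in the organisation of the bilayered TEB and duct.

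Promoter sequence was taken for 5 genes on which the results below turn, namely Ephb6, Plxna2 and Robo1, which differed between TEB and duct, and Reln and Sema3d, which were among those that differed most between the lineages. Each window holds 200 bases, from 250 to 51 bases before a transcript start in RefSeq on the build GRCm38.p6 (mm10), and is written 5′ to 3′ on the strand of the gene. Capitals mark the GC box GGGCGG, a binding motif of Sp1-type factors, on either strand. The windows lie at chr6:41605261-41605460 (plus strand), chr1:194619579-194619778 (plus), chr16:72662899-72663098 (plus), chr5:22344756-22344955 (minus) and chr5:12382916-12383115 (plus), and those of Ephb6 and Robo1 fall inside the annotated span of a longer transcript of the gene.
Ephb6: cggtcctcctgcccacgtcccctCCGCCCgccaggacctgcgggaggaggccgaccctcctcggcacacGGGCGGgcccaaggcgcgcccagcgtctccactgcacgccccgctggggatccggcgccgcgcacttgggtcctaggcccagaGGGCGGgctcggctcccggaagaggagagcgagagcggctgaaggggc
Plxna2: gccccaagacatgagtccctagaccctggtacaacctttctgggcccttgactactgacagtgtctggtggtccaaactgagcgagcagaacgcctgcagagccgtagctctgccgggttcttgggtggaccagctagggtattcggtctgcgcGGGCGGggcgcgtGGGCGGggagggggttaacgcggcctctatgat
Robo1: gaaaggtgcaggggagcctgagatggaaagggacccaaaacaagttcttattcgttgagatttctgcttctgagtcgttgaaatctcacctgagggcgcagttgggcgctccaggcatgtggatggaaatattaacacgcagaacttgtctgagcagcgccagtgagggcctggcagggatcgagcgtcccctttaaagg
Reln: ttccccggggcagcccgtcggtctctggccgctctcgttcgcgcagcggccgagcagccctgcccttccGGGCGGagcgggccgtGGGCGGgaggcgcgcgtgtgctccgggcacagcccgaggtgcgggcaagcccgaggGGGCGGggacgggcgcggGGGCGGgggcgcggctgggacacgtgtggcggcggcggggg
Sema3d: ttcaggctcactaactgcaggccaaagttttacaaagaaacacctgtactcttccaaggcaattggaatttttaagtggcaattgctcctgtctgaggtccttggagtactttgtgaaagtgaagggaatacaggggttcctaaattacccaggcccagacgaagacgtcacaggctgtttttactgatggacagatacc
The GC box occurred 3 times in the window of Ephb6, 2 times in that of Plxna2 and 4 times in that of Reln, and it was not found in those of Robo1 and Sema3d. Among all 32851 RefSeq windows of this length, 24.6% held a GC box, against 57.1% of the 77 windows of the 61 guidance genes that matched. The median window of these genes held 12 CpG dinucleotides against 4 over all windows. All windows came from 27025 genes without a limit to protein-coding ones, while every guidance gene codes for protein. Windows of protein-coding genes alone were not compared. Genes higher in basal cells in both structures, as given below, had a GC box in 62.1% of 29 windows and the remaining guidance genes in 54.2% of 48. The AP-1 motif TGANTCA, searched on both strands like those that follow, was in none of the 5 windows and in 5.57% of all windows. The TEAD motif GGAATG was likewise absent from the 5 and in 10.7% of all, and the GATA motif AGATAA in 8.42%, again in none of the 5. The E-box CANNTG was present in all of them except that of Plxna2 and in 59.0% of all windows. These are descriptions of sequence and say nothing about binding.

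Libraries held 27989137 to 49221436 counts, and between 53 and 65 of the 71 guidance genes had a count in any one of them. Mitochondrial genes took 37.5% of counts in basal TEB replicate 1, 17.8% in basal TEB replicate 3, 28.5% in luminal duct replicate 3 and 4.34% to 10.9% elsewhere. Levels are in CPM, counts brought to a common library size after TMM scaling, or as RPKM, which divides by gene length, where genes are compared with each other. The labels held against their markers, as the summed CPM of 9 basal genes (Krt5, Krt14, Acta2 and others) was 5838 to 21417 in basal and 16 to 288.6 in luminal libraries, and that of Krt8, Krt18 and Krt19 was 233.5 to 509.0 in basal and 9911 to 15302 in luminal libraries. The basal sum was lower in the 3 basal TEB libraries (5838 to 9111) than in the 3 basal duct libraries (17235 to 21417), and within luminal cells it was higher in ducts (105.6 and 288.6) than in TEBs (16 to 29.3). The sum of Krt8, Krt18 and Krt19 was likewise lower in basal TEB (233.5 to 267.8) than in basal duct (424.7 to 509.0). The summed level of 8 endothelial markers was 262.1 CPM in basal duct replicate 2, with all 8 detected, and 6.13 to 71.7 CPM in the remaining libraries, the highest of these being luminal duct replicate 3. Fibroblast (880.9), immune (134.3) and adipocyte (188.8) sums were likewise highest among basal libraries in basal duct replicate 2, and luminal duct replicate 3 led the luminal libraries with 266.7, 196.2 and 75.1. Pericyte, erythroid and Schwann or nerve sums reached 273.4, 31.3 and 367.3 CPM, the first in luminal TEB replicate 3, the second in luminal duct replicate 3 and the third in basal duct replicate 3. In bulk samples, fewer cells of a type and less RNA per cell cannot be told apart.

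Per length of transcript, Sema3b was the guidance gene with the highest level in basal cells of both structures. Sema3b, a secreted class 3 semaphorin, stood at 291.9 ± 49.1 RPKM (SD, n = 3) in basal TEB and 94.4 ± 67.0 RPKM (n = 3) in basal duct. In basal TEB it was followed by Reln, a secreted glycoprotein, at 70.9 ± 13.7 RPKM and by the receptor Epha2 at 63.0 ± 9.48 RPKM, whose ranges over libraries overlapped. In basal duct, the level of Sema3b varied from 31.0 to 164.5 RPKM and overlapped that of Epha2 (62.7 ± 10.7 RPKM), Sema6d (47.1 ± 11.5), Reln (46.8 ± 13.2) and Sema3c (43.8 ± 3.09). The order in luminal cells was different, with Plxnb2, a plexin that binds class 4 semaphorins, first in TEB at 55.7 ± 2.08 RPKM (n = 3) and in duct at 37.9 ± 2.36 RPKM (n = 2). Efna1, an ephrin-A ligand, was second in luminal TEB (25.8 ± 1.81 RPKM) and luminal duct (33.8 ± 14.9), and in ducts its 2 libraries spanned the level of Plxnb2. Epha2 and Sema4c followed in luminal TEB with 25 ± 3.39 and 19.0 ± 0.870 RPKM, and the first of these did not differ from Efna1 beyond its spread. The heat map of levels per length shows that many guidance genes had substantial RNA in basal libraries and little or none in luminal ones.

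**Figure D1:**
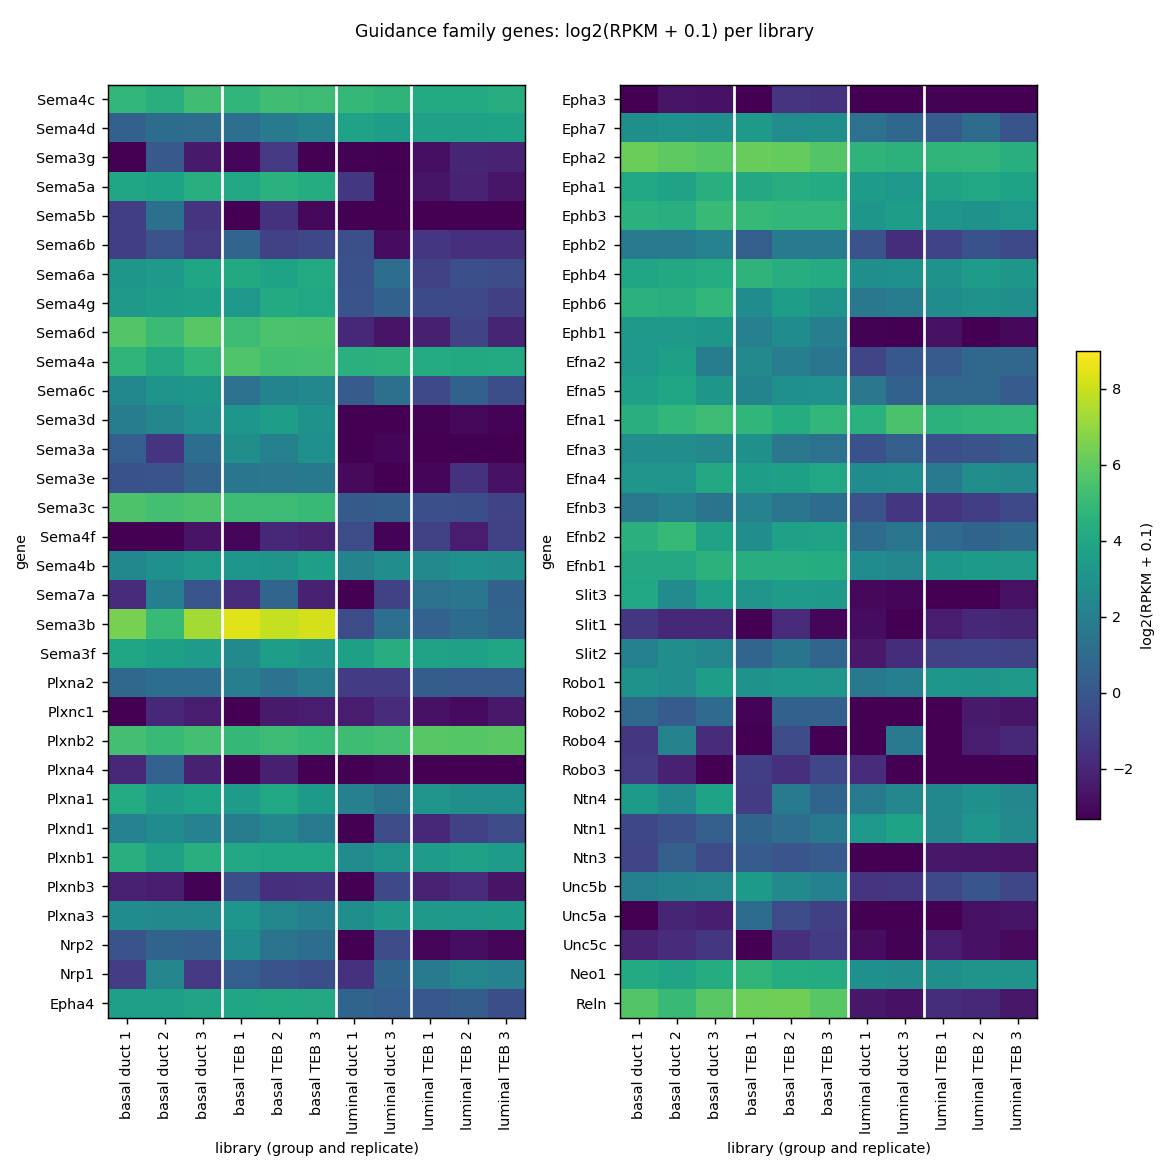
Heat map of log2(RPKM + 0.1) for the 64 tested guidance genes (rows, in 2 panels of 32) in the 11 libraries (columns, separated by group with white lines). Sema3b is brightest in the basal columns except that of basal duct replicate 2, where Epha2 is brightest. Plxnb2 is bright in every library, and Reln, Sema6d, Sema3c and Slit3 are bright in basal and dark in luminal columns.

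Basal and luminal cells were first compared within ducts and within TEBs, the comparison in which the families moved most. Of the 64 guidance genes tested, 36 were higher and 2 were lower in basal than in luminal cells of ducts, which is 59.4% against 22.3% of all 17370 genes tested. In TEBs, 35 were higher and 3 lower in basal cells, again 59.4%, against 25.1% of all genes. A gene was called where edgeR's quasi-likelihood test gave a p below 0.05 once adjusted over all genes after Benjamini and Hochberg. Among all genes, 12.6% were higher and 9.71% lower in ducts and 13.2% and 11.8% in TEBs. The median log2 fold change of the 64 genes, basal over luminal, was 2.55 in ducts and 1.75 in TEBs, beside 0.08 and 0.04 over all genes. Libraries of basal and luminal cells did not overlap, with basal higher, for 44 genes in ducts (68.8%) and 43 in TEBs (67.2%), against 24.8% and 22.6% of all genes. With basal lower, they did not overlap for 3 genes in ducts (4.69%) and 7 in TEBs (10.9%), against 21.2% and 27.2% of all genes. By gene, 29 were higher in basal cells in both structures, Sema4d and Ntn1 were lower in both, and 19 were called in neither.

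Semaphorins made the largest group, with 10 of 20 higher and 1 lower in basal cells of ducts and 12 higher and 1 lower in TEBs. Among the 7 class 3 members, which are secreted, Sema3a, Sema3b, Sema3c, Sema3d and Sema3e were higher in basal cells in both structures. Sema3c measured 230.0, 200.2 and 221.4 CPM in basal duct, 172.8, 173.6 and 155.9 in basal TEB, 5.14 and 5.59 in luminal duct and 3.47, 3.41 and 2.41 in luminal TEB. Its basal and luminal libraries were far apart, with a log2 fold change of 5.34 ± 0.24 (SE) in ducts (adjusted p = 3.29e-07) and 5.76 ± 0.21 in TEBs (adjusted p = 2.32e-08). Sema3b was at 301.6, 106.5 and 565.1 CPM in basal duct and 1170, 833.1 and 1006 CPM in basal TEB, against 2.09 to 7.53 CPM in the 5 luminal libraries. The log2 fold change of Sema3b was 6.10 ± 0.78 in ducts and 7.51 ± 0.68 in TEBs (adjusted p = 0.000146 and 8.00e-06).

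Sema3d and Sema3a were close to absent from luminal cells. Sema3d was counted at 22.8, 32.05 and 47.8 CPM in basal duct and 57.0, 77.0 and 50.7 CPM in basal TEB, at 0 in both luminal duct libraries and at 0.02 to 0.13 CPM in luminal TEB. Against a limit of 3 counts over the luminal duct group, Sema3d was at least 778-fold higher in basal duct (adjusted p = 6.15e-06), and its log2 fold change in TEBs was 9.66 ± 0.58 (adjusted p = 8.00e-07). Sema3a was at 8.70, 1.89 and 15.1 CPM in basal duct and 50.0, 30.6 and 51.7 CPM in basal TEB, with 4 counts in all in luminal duct and none in luminal TEB, where it was at least 2190-fold lower than in basal TEB (adjusted p = 3.54e-05). Limits for a count of 0 cover counting error only. Sema3f, another class 3 member, was not called in either structure (log2 fold change -0.34 in ducts and -0.68 in TEBs), with 19.5 to 51.4 CPM in basal and 42.5 to 68.2 CPM in luminal libraries.

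Of the membrane-bound semaphorins, Sema6d and Sema5a showed the largest basal excess. Sema6d, a class 6 member that signals through A-type plexins, measured 337.7, 222.3 and 363.4 CPM in basal duct, 224.7, 302.5 and 288.1 in basal TEB and 0.37 to 3.14 in luminal libraries (log2 fold change 8.60 ± 0.77 in ducts and 7.40 ± 0.59 in TEBs, adjusted p = 1.13e-05 and 2.99e-06). Sema5a, which carries thrombospondin repeats, was at 150.0 to 255.6 CPM in basal libraries and at 3.23 CPM in luminal duct replicate 1 but 0.04 to 1.41 in the remaining luminal libraries (6.71 ± 0.93 in ducts and 7.86 ± 0.82 in TEBs, adjusted p = 0.000275 and 2.26e-05). Sema4g, Sema6a and Sema6c were also higher in basal cells in both structures, with log2 fold changes of 2.18 to 4.83. Sema4a and Sema4c were called in TEBs (1.19 ± 0.19 and 0.80 ± 0.21, adjusted p = 0.000610 and 0.0138) and not in ducts. The call of Sema4c held under 16 of 20 alternatives. Sema4d, a ligand of plexin-B1 and plexin-B2, ran the other way, with 5.87, 8.50 and 8.70 CPM in basal duct and 9.35, 14.4 and 19.6 in basal TEB against 51.6 to 62.6 in all 5 luminal libraries. Sema4d was lower in basal cells by a log2 fold change of -2.86 ± 0.31 in ducts and -2.03 ± 0.29 in TEBs (adjusted p = 4.59e-05 and 0.000230).

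Of the semaphorin receptors, Plxna2 and Plxnd1 were higher in basal cells in both structures. Of 9 plexins, 4 were higher in basal cells of ducts (Plxna1, Plxna2, Plxnb1 and Plxnd1), and in TEBs 2 were higher (Plxna2 and Plxnd1) and Plxnb2 was lower. DESeq2 and limma voom also called Plxna1 higher in TEBs (adjusted p = 0.0269 and 0.0285, against 0.0546 by edgeR). Plxnb2 was at 209.3 to 264.9 CPM in basal duct, 191.3 to 231.7 in basal TEB, 237.3 and 259.1 in luminal duct and 365.0, 351.8 and 379.0 in luminal TEB. Basal and luminal levels of Plxnb2 overlapped in ducts (log2 fold change -0.02) and did not in TEBs (-0.82 ± 0.16, adjusted p = 0.00217). Plxnd1, the receptor of Sema3e, was at 22.6 to 42.9 CPM in basal libraries and at 0 and 4.40 CPM in the luminal duct libraries (3.99 ± 1.30 in ducts and 3.29 ± 1.05 in TEBs, adjusted p = 0.0466 and 0.0387), and its call held under 10 of 20 alternatives in each structure. Neuropilin-2 (Nrp2) was higher in basal TEB, at 51.5, 20.8 and 17.1 CPM, than in luminal TEB, at 0.09 to 0.29 CPM (7.53 ± 1.48, adjusted p = 0.00260), while neuropilin-1 (Nrp1) was not called by edgeR's quasi-likelihood test in either structure. In TEBs, Nrp1 was at 7.10, 4.91 and 4.03 CPM in basal and 19.2, 29.3 and 25.4 CPM in luminal libraries, without overlap (-2.21 ± 0.97, adjusted p = 0.123), and DESeq2 (adjusted p = 0.0470) and limma voom (0.0277) called it lower in basal cells. In ducts its level rested on single libraries, as described below.

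**Figure D2:**
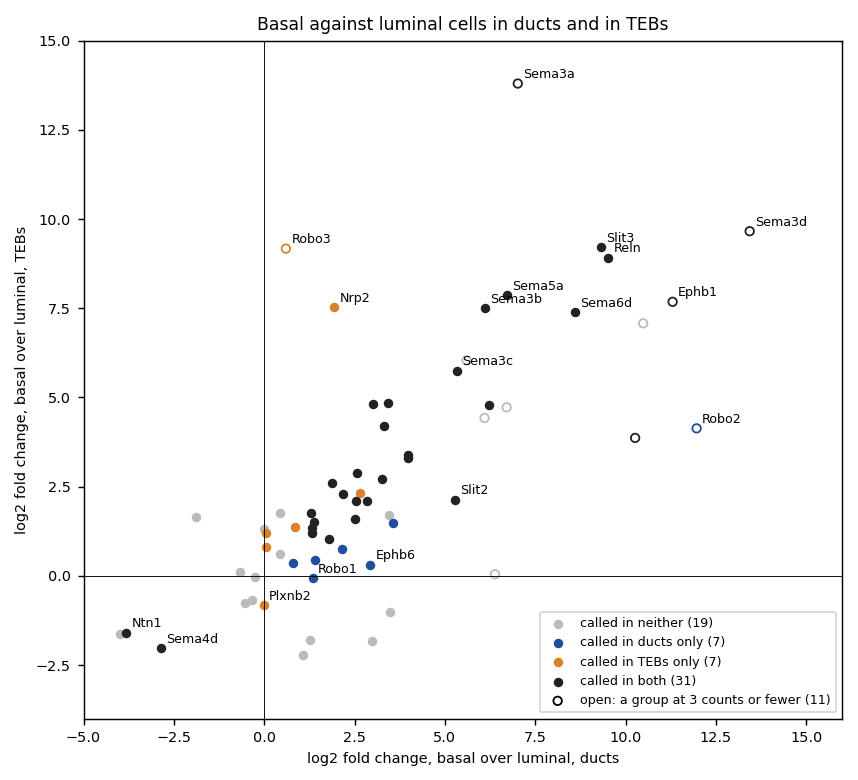
Each point is 1 of the 64 tested guidance genes, placed by its log2 fold change of basal over luminal cells in ducts (horizontal axis) and in TEBs (vertical axis), with colors for where it was called. Most points lie in the upper right quadrant, and Ntn1 and Sema4d are called lower in basal cells in both structures. The 11 open points had a group at 3 counts or fewer, so that their positions depend on the prior count of the fit.

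Most Eph receptors tested and all ephrin-B ligands were higher in basal cells, and the ephrin-A ligands were divided. Of the 5 EphA receptors tested, 4 were higher in basal cells of ducts and 3 in TEBs, and of the 5 EphB receptors all 5 and 4, respectively. Epha2 measured 291.9, 238.5 and 209.3 CPM in basal duct, 272.5, 265.9 and 204.9 in basal TEB and 82.8 to 106.5 in luminal libraries. The log2 fold change of Epha2 was 1.33 ± 0.21 in ducts (adjusted p = 0.000766) and 1.34 ± 0.19 in TEBs (adjusted p = 0.000212), and these differed by 0.01 ± 0.27. Epha4, which binds ephrins of both classes, was at 77.1 to 112.0 CPM in basal and 4.28 to 9.26 CPM in luminal libraries (3.30 ± 0.27 and 4.21 ± 0.24, adjusted p = 6.59e-06 and 3.55e-07). Epha7 (1.88 and 2.61), Ephb2 (2.83 and 2.10), Ephb3 (1.29 and 1.75) and Ephb4 (1.32 and 1.21) were also called in both structures, by log2 fold changes in ducts and TEBs. The call of Ephb2 held under 18 of 20 alternatives in ducts and 15 of 20 in TEBs. Epha1 was called in ducts only, and that call held under 11 of 20 alternatives. Ephb1 had almost all of its counts in basal libraries, at 45.3, 44.7 and 42.3 CPM in duct and 18.9, 29.3 and 17.4 in TEB. It had a single count in luminal duct and 15 counts in luminal TEB (log2 fold change 7.68 ± 0.77 in TEBs, adjusted p = 1.69e-05).

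All 3 ephrin-B ligands were higher in basal cells in both structures. Efnb2 was at 96.0, 132.2 and 59.5 CPM in basal duct, 27.9, 57.8 and 59.7 in basal TEB and 6.4 to 11.8 in luminal libraries (3.26 ± 0.43 and 2.71 ± 0.36, adjusted p = 0.000187 and 0.000133). Efnb1 showed a smaller difference, with 55.7 to 78.4 CPM in basal and 16.3 to 33.5 CPM in luminal libraries (1.79 ± 0.23 and 1.04 ± 0.19, adjusted p = 0.000148 and 0.00167). Efnb3 was at 6.33 to 14.0 CPM in basal and 0.90 to 2.53 CPM in luminal libraries (2.57 ± 0.77 and 2.89 ± 0.66, adjusted p = 0.0314 and 0.00681). Its call in ducts held under 10 of 20 alternatives, with an adjusted p of up to 0.198, and was lost among others without basal duct replicate 1 (0.0582), 2 (0.0730) or 3 (0.0529), luminal duct replicate 3 (0.130) or luminal TEB replicate 2 (0.0505). Of the ephrin-A ligands, Efna5 was called in both structures (2.54 ± 0.41 and 2.11 ± 0.35, adjusted p = 0.000805 and 0.000725), Efna2 in ducts (3.56 ± 0.74, adjusted p = 0.00423) and Efna3 and Efna4 in TEBs (2.32 ± 0.76 and 1.36 ± 0.41, adjusted p = 0.0424 and 0.0278). In TEBs, Efna4 held its call under 15 of 20 alternatives and Efna3 under 9 of 20. Efna3 had a log2 fold change of 2.65 ± 0.90 in ducts (adjusted p = 0.0539), where DESeq2 (0.000986) and limma voom (0.0333) called it. Efna2 was called in TEBs by DESeq2 (1.49, adjusted p = 0.0284), so that these genes were not shown to differ between structures. Efna1, the ephrin-A ligand with the highest level per length, was not called, at 32.4 to 56.8 CPM in basal and 38.3 to 72.8 CPM in luminal libraries.

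Among Slits and their receptors, Slit2 and Slit3 were higher in basal cells in both structures. Slit3 was at 81.7, 30.5 and 61.5 CPM in basal duct and 42.8, 56.3 and 48.6 CPM in basal TEB, and at 0.23 CPM or less in every luminal library (9.32 ± 1.10 and 9.22 ± 0.89, adjusted p = 8.09e-05 and 1.23e-05). Slit2 was higher in basal cells by 5.27 ± 0.57 in ducts and 2.14 ± 0.41 in TEBs (adjusted p = 4.16e-05 and 0.00207), and its libraries are given below. Slit1 was at 1.54 CPM or less everywhere and was not called. Robo2 was counted at 13.2, 8.89 and 15 CPM in basal duct and not at all in luminal duct, where it was at least 281-fold lower (adjusted p = 0.0164). This call held under 17 of 20 alternatives and was lost without luminal duct replicate 1 or 3. DESeq2 also called Robo2 in TEBs (adjusted p = 0.0104, against 0.0828 by edgeR). Robo3 was called in TEBs, at 1.85, 1.03 and 2.46 CPM in basal TEB and 0 in luminal TEB, at least 88.5-fold lower (adjusted p = 0.0401), and held its call under 10 of 20 alternatives.

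Netrins were split between the lineages. Netrin-1 (Ntn1), the best known attractant of the family, was at 54.4 and 79.5 CPM in luminal duct and 29.6, 50.4 and 32.2 in luminal TEB, against 3.03, 4.21 and 7.03 in basal duct and 8.31, 11.4 and 17.3 in basal TEB. Every luminal library lay above every basal library, and Ntn1 was lower in basal cells by -3.81 ± 0.44 on the log2 scale in ducts and -1.60 ± 0.38 in TEBs (adjusted p = 6.64e-05 and 0.00896). Ntn3 ran the other way at lower levels, with 2.39, 5.92 and 3.08 CPM in basal duct, none in luminal duct (at least 86.4-fold lower, adjusted p = 0.00139), 5.31, 4.11 and 5.15 in basal TEB and 0.36, 0.34 and 0.29 in luminal TEB (3.87 ± 0.97, adjusted p = 0.0135). The call of Ntn3 in TEBs held under 17 of 20 alternatives. An exon of Ntn3 shares 89 bases with an exon of Tbc1d24 on the same strand, so that reads there cannot be told apart. Of the receptors, neogenin (Neo1) was at 107.5 to 199.8 CPM in basal and 47.2 to 60.1 CPM in luminal libraries (1.38 ± 0.22 and 1.51 ± 0.19, adjusted p = 0.000725 and 0.000106). Unc5b was at 22.7 to 62.0 CPM in basal and 1.64 to 5.20 CPM in luminal libraries (3.97 ± 0.50 and 3.39 ± 0.40, adjusted p = 0.000126 and 6.19e-05), while Unc5a and Unc5c were not called, and Dcc and Unc5d did not pass the filter.

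Reelin (Reln) combined a high level with a large difference. Reln was at 608.5, 372.0 and 663.2 CPM in basal duct, 899.9, 942.3 and 645.5 in basal TEB, 0.84 and 0.62 in luminal duct and 2.35, 1.91 and 0.89 in luminal TEB. Basal and luminal libraries differed by a log2 fold change of 9.52 ± 0.56 in ducts and 8.92 ± 0.45 in TEBs (adjusted p = 1.09e-06 and 1.50e-07). The reelin receptor Vldlr was also higher in basal cells (3.99 ± 0.50 and 4.93 ± 0.43, adjusted p = 0.000126 and 6.13e-06), at 34.1, 39.4 and 72.4 CPM in basal duct, 104.0, 102.7 and 112.5 in basal TEB and 1.96 to 5.24 in luminal libraries. The receptor Lrp8 was not called (1.45 ± 0.63 and 1.26 ± 0.54, adjusted p = 0.121 and 0.115). Dab1, the adaptor through which neurons relay the reelin signal, was at 1.04 CPM in basal duct replicate 1 and at 0.03 CPM or less in the remaining libraries.

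TEBs and ducts were then compared within each cell type, to ask which guidance genes marked the growing tip. In basal cells, 0 of the 64 genes were higher and 1, Ephb6, was lower in TEB by edgeR's quasi-likelihood test, which is 1.56% against 1.32% of all genes (0.167% higher and 1.16% lower). At an unadjusted p below 0.05 there were 7 higher and 6 lower. DESeq2 called 4 higher and 3 lower, with 874 called over all genes, and limma voom 3 higher and 2 lower, with 601. In luminal cells, 2 were higher (Plxna2 and Robo1) and 0 lower in TEB, which is 3.12% against 1.41% of all genes (0.639% higher and 0.771% lower). Here 15 were higher and 8 lower at an unadjusted p below 0.05. DESeq2 called 7 higher and 4 lower, with 1247 called over all genes, and limma voom 1 higher and 0 lower, with 351. The share of all genes at an unadjusted p below 0.05 was not taken, so counts at that p have no background in either cell type. The median log2 fold change of the guidance genes was -0.00 in basal and 0.20 in luminal cells, beside -0.03 and 0.04 over all genes. TEB and duct libraries did not overlap for 12 genes with TEB higher and 8 with TEB lower in basal cells, which is 18.8% and 12.5% against 8.88% and 11.9% of all genes. In luminal cells the same held for 19 and 10 genes, 29.7% and 15.6% against 26.2% and 17.4%. These shares were near the background except for TEB higher in basal cells.

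Ephb6, an Eph receptor whose kinase domain lacks activity, fell in basal TEB. It measured 87.7, 80.1 and 108.8 CPM in basal duct and 23.3, 43.2 and 30.6 CPM in basal TEB, and in luminal cells 11 and 13.2 CPM in duct and 23.4, 29 and 26.1 CPM in TEB. The basal duct libraries were above all others, and in luminal cells the order of the structures was the opposite one, again without overlap. The log2 fold change from duct to TEB was -1.51 ± 0.24 in basal cells (adjusted p = 0.0114) and 1.11 ± 0.28 in luminal cells (adjusted p = 0.0754, and 0.0170 by DESeq2). The difference between these changes was -2.62 ± 0.37 (adjusted p = 0.0127), the only one of the 64 guidance genes called in this interaction (1.56%, against 0.443% of all genes, of which 0.0806% had a positive and 0.363% a negative difference). At an unadjusted p below 0.05 there were 9 positive and 15 negative, again without a share over all genes beside them. DESeq2 called 5 and 7, with 696 called over all genes, and limma voom 0 and 1, with 95. The basal call of Ephb6 was lost without basal duct replicate 1 (-1.57, adjusted p = 0.0508), without basal TEB replicate 3 (-1.47, adjusted p = 0.0759) and with scaling by library size alone (-1.58, adjusted p = 0.139). Without basal TEB replicate 1 and luminal duct replicate 3, the libraries of highest mitochondrial share, it was -1.31 (adjusted p = 0.0209). In ducts Ephb6 was higher in basal than luminal cells (2.93 ± 0.30, adjusted p = 3.19e-05), and in TEBs this was not called (0.31). The basal marker sum fell with Ephb6 from duct to TEB in basal cells, and its part in the result was not tested.

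**Figure D3:**
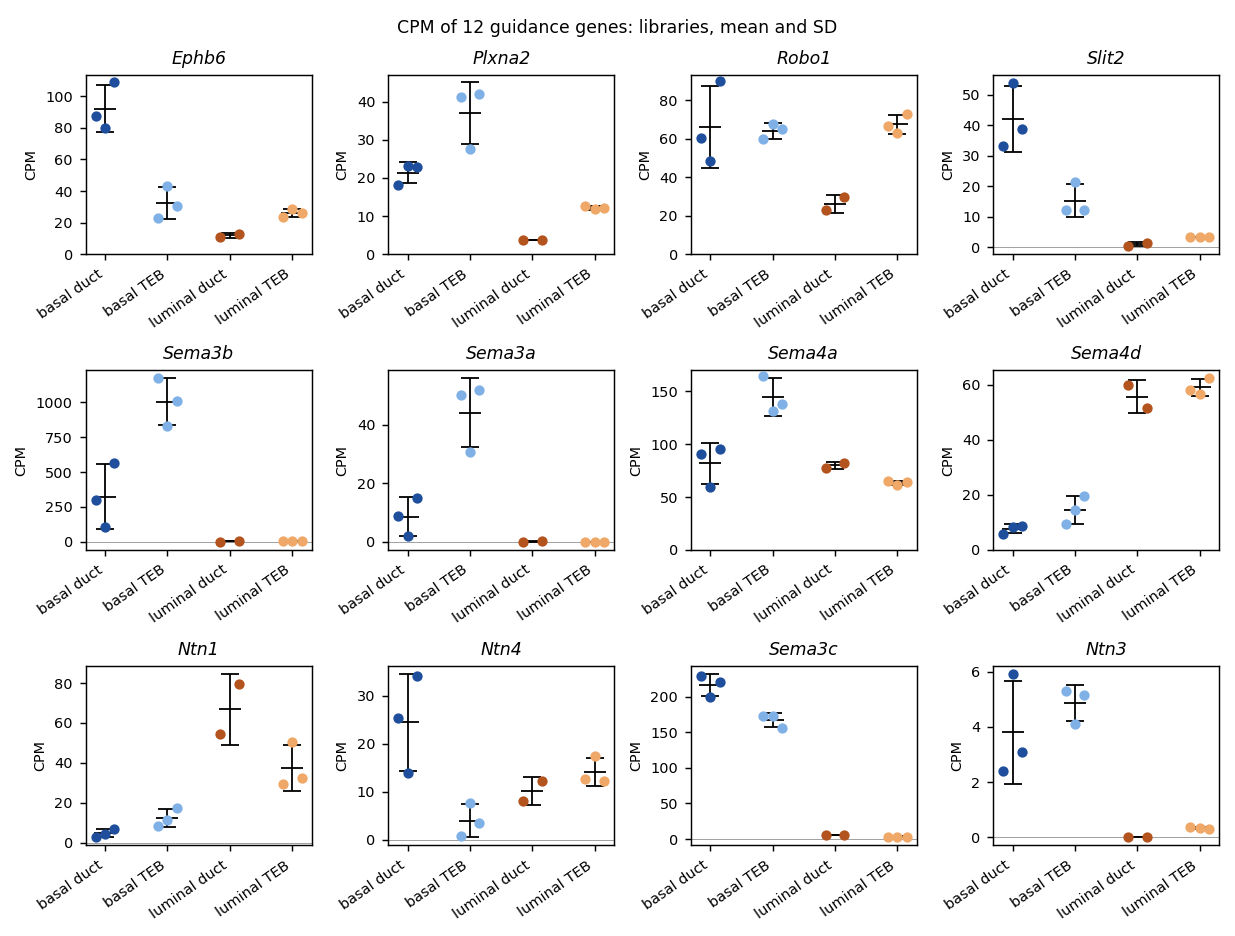
CPM of 12 guidance genes in each library (points), with the mean and SD of each group (bars; n = 3, or 2 for luminal duct), on linear axes that start at or near 0. Ephb6 is highest in the 3 basal duct libraries, Plxna2 and Robo1 are lowest in the luminal duct libraries, and Ntn1 and Sema4d are higher in luminal than basal libraries.

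Plxna2, a plexin that binds class 6 semaphorins and, with neuropilins, class 3 ones, rose in luminal TEB. It was at 3.73 and 3.74 CPM in luminal duct and 12.7, 11.8 and 12.1 CPM in luminal TEB, a log2 fold change of 1.71 ± 0.32 (adjusted p = 0.0269). In basal cells it was at 18.3, 23.1 and 22.8 CPM in duct and 41.2, 27.6 and 42.0 CPM in TEB, where TEB libraries were also all above duct libraries but the change was not called (0.79 ± 0.27, adjusted p = 0.206). The luminal progenitor marker sum moved the other way without overlap, from 745.1 and 862.5 CPM in luminal duct to 389.3, 477.8 and 375.7 CPM in luminal TEB, and its part in this rise and in that of Robo1 below was not tested. The luminal call of Plxna2 held under 12 of 20 alternatives, and the replicate block was among those that lost it (1.76, adjusted p = 0.0624). The settings that lost it include leaving out luminal duct replicate 3 (1.71, adjusted p = 0.0775), luminal TEB replicate 1, 2 or 3 (1.65 to 1.72, adjusted p = 0.0929, 0.0765 and 0.103) or basal duct replicate 2 and luminal duct replicate 3 together (1.73, adjusted p = 0.0690), scaling by library size alone (2.09, adjusted p = 0.0606) and limma voom (1.70, adjusted p = 0.192).

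Robo1, the Slit receptor best studied in the mammary gland, also rose in luminal TEB. It was at 22.9 and 29.6 CPM in luminal duct and 66.6, 62.8 and 72.7 CPM in luminal TEB, a log2 fold change of 1.36 ± 0.26 (adjusted p = 0.0296). Its level in luminal TEB was in the range of basal cells, at 60.2, 48.6 and 89.8 CPM in basal duct and 59.6, 67.6 and 65.0 CPM in basal TEB, where duct and TEB overlapped (-0.05 ± 0.22). Robo1 was accordingly called between basal and luminal cells in ducts (1.34 ± 0.26, adjusted p = 0.00293) and not in TEBs (-0.07), and the difference between the changes was -1.41 ± 0.34 (adjusted p = 0.108, and 0.0156 by DESeq2). The luminal call held under 12 of 20 alternatives. It was lost without any 1 of luminal TEB replicates 1, 2 and 3 (adjusted p = 0.1, 0.0802 and 0.138), luminal duct replicates 1 and 3 (0.0532 and 0.0636), basal TEB replicate 3 (0.0535) or basal duct replicate 1 (0.0557), with a log2 fold change of 1.19 to 1.56, and with library size alone (1.77, adjusted p = 0.0925).

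The ligand of Robo1, Slit2, had values of opposite direction in the lineages that missed the threshold by edgeR's quasi-likelihood test and passed it by other tools. Slit2 was at 33.3, 54.0 and 38.9 CPM in basal duct and 12.4, 21.5 and 12.4 CPM in basal TEB, and at 0.61 and 1.60 CPM in luminal duct and 3.41, 3.58 and 3.51 CPM in luminal TEB. The structures did not overlap in either lineage, with a log2 fold change of -1.45 ± 0.40 in basal (adjusted p = 0.119) and 1.68 ± 0.48 in luminal cells (adjusted p = 0.109). DESeq2 called Slit2 in basal cells (adjusted p = 0.0111), luminal cells (0.0222) and the interaction (0.000301), and limma voom in basal cells (0.0336). The difference was -3.13 ± 0.63 (adjusted p = 0.0601 by edgeR). It was -3.82 without basal TEB replicate 1 and luminal duct replicate 3, and -3.74 without basal duct replicate 2 and luminal duct replicate 3. Both omissions leave luminal duct replicate 1 alone in its group, and the latter was chosen after seeing the data.

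Several ligands had higher values in basal TEB than basal duct that did not pass edgeR's quasi-likelihood test. Sema3b had all 3 basal TEB libraries above all basal duct libraries, with a log2 fold change of 1.63 ± 0.53 (adjusted p = 0.188). For Sema3b, limma voom gave an adjusted p of 0.0143 and DESeq2 one of 0.0255. Its lowest basal duct library, at 106.5 CPM, was replicate 2, which held the most endothelial marker RNA, and without that library and luminal duct replicate 3 the fold change was 1.21 (adjusted p = 0.108). Sema3a (2.36 ± 0.69, adjusted p = 0.164), Sema4a (0.82 ± 0.19, adjusted p = 0.0664), Sema4d (0.92 ± 0.28, adjusted p = 0.161) and Ntn1 (1.38 ± 0.39, adjusted p = 0.124) likewise had no overlap between basal TEB and duct. Of these, DESeq2 called Sema3a (adjusted p = 0.0230), Sema4a (0.00865) and Ntn1 (0.0292), and limma voom called Sema3a (0.0173) and Sema4a (0.0270). Sema4a measured 90.6, 60.0 and 96.0 CPM in basal duct and 165.0, 131.5 and 138.1 CPM in basal TEB, and 77.7 and 82.2 against 64.8, 61.7 and 64.1 CPM in luminal cells. The difference of its changes between the lineages was 1.15 ± 0.28 (adjusted p = 0.111 by edgeR and 0.0111 by DESeq2).

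Netrin-4 (Ntn4), a basement membrane netrin, had lower values in basal TEB. It was at 25.4, 13.9 and 34.1 CPM in basal duct and 0.81, 7.73 and 3.58 CPM in basal TEB, and at 8.15 to 17.5 CPM in luminal libraries. Basal TEB libraries were below all others, and the change of -2.58 ± 0.66 missed the threshold (adjusted p = 0.0969 by edgeR and 0.00212 by DESeq2). Its lowest value was in basal TEB replicate 1, the library with the highest mitochondrial share, and without it and luminal duct replicate 3 the change was -2.10 (adjusted p = 0.0607). In luminal cells, the lowest p after those of Plxna2 and Robo1 were for Ntn3, Sema3c and Ephb6. Ntn3 was absent from luminal duct, with a limit of 3 counts, and had 49 counts over luminal TEB (adjusted p = 0.0700, and 0.0107 by DESeq2), and Sema3c was lower in TEB (-0.79 ± 0.19, adjusted p = 0.0702, and 0.00562 by DESeq2). The basal marker sum was lower in luminal TEB than luminal duct as well, and its part in the value of Sema3c was not tested.

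**Figure D4:**
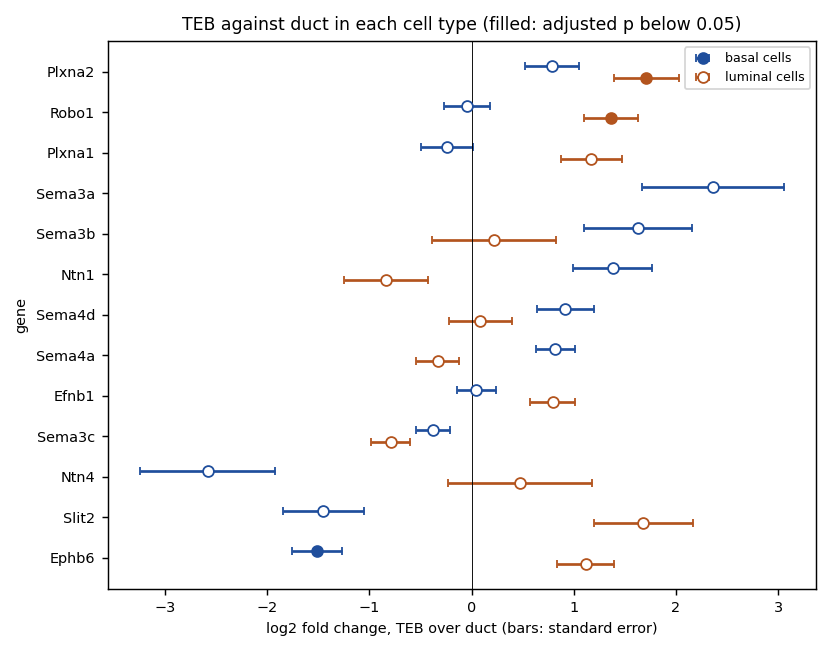
Log2 fold change of TEB over duct in basal (blue) and luminal (brown) cells for 13 guidance genes, with standard errors and filled points for adjusted p below 0.05. Ephb6 in basal cells and Plxna2 and Robo1 in luminal cells are filled, and the points of Ephb6 and Slit2 lie on opposite sides of 0 in the lineages. Sema3a is not drawn for luminal cells, where TEB had no counts.

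Some guidance genes were high in 1 library of a group. Robo4, known as the Robo of endothelial cells, was at 16.2 CPM in basal duct replicate 2 and 12 CPM in luminal duct replicate 3, and at 2.32 CPM or less elsewhere. Plxna4 was at 17.0 CPM in basal duct replicate 2 and at most 2.02 CPM elsewhere, and Sema5b at 10.4 against at most 1.76 CPM. Nrp1, an endothelial and neuronal co-receptor, was at 28.1 CPM in basal duct replicate 2 against 2.23 and 1.82 CPM in the other basal duct libraries, and at 8.84 CPM in luminal duct replicate 3 against 1.43 CPM in replicate 1. Unlike Robo4, Nrp1 was also at 19.2, 29.3 and 25.4 CPM in luminal TEB, where the endothelial sum was 23.6 to 33.3 CPM. Most of that sum came from Vwf (12.8 to 16.8 CPM) and Egfl7 (6.48 to 8.19 CPM), and each remaining marker was at 5.34 CPM or less there. The luminal change of Nrp1 from duct to TEB was 2.27 (adjusted p = 0.338) with all libraries. Without basal duct replicate 2 and luminal duct replicate 3 it was 4.12. That omission was chosen after seeing the data and leaves luminal duct replicate 1 alone in its group. Sema7a (12.9 CPM) and Sema3g (3.68 CPM) were also highest in basal duct replicate 2, and Nrp2 (5.14 CPM), Plxnd1 (4.40) and Plxnb3 (3.37) exceeded the other luminal duct library, which had none, in luminal duct replicate 3. The endothelial sum was highest in the former library and, among luminal libraries, in the latter, and its part in these values was not tested. Sema5a and Sema4f were in turn at 3.23 and 3.03 CPM in luminal duct replicate 1 and both at 0.04 CPM in replicate 3.

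**Figure D5:**
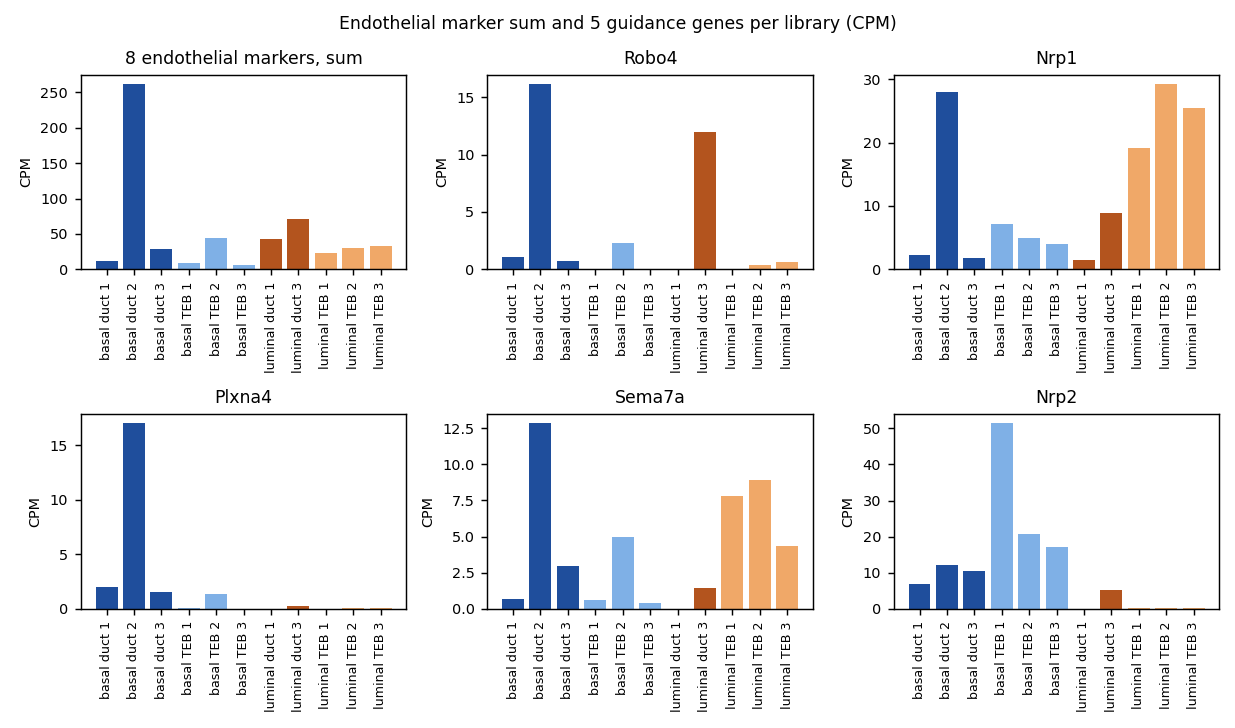
Summed CPM of 8 endothelial markers and CPM of 5 guidance genes in each of the 11 libraries (bars from 0, colored by group). Robo4 and Plxna4 share their highest bar, basal duct replicate 2, with the endothelial sum, while Nrp1 and Sema7a are also present in luminal TEB and Nrp2 is highest in basal TEB.

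Neighbouring genes were not always alike. On chromosome 5, Sema3d, Sema3a and Sema3e lie in a row with gaps of 535.9 and 421.8 kb, and all 3 were higher in basal cells in both structures. On chromosome 9, Sema3b and Sema3f are 72.3 kb apart, and the former differed strongly between lineages while the latter was not called. On chromosome 3, Efna1, Efna3 and Efna4 lie within gaps of 32.9 and 10.5 kb, and Efna3 and Efna4 were called in TEBs while Efna1 was called in neither structure. Robo1 and Robo2, 844.5 kb apart on chromosome 16, were both higher in basal cells of ducts. The libraries do not mark strand, and exons of Epha1 overlap those of Zyx by 156 bases and exons of Ephb4 those of Zan by 33 bases on the opposite strand, so that reads there cannot be told apart. The same holds for antisense genes at Efna3, Efna4, Ephb1, Ntn3, Plxna1, Plxnb1, Reln and Sema4c.

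The partners and relays of these families were described from a list of 87 further genes, of which 83 were tested. In basal cells, 0 were higher and 3 lower in TEB by edgeR's quasi-likelihood test (3.61%, against 1.32% of all genes). A further 2 tools called 0 and 7 (DESeq2, with 874 called over all genes) and 2 and 4 (limma voom, with 601). At an unadjusted p below 0.05, 5 were higher and 12 lower. Counts at that p, here and in luminal cells below, have no share over all genes beside them. Rras, a small GTPase held in check by plexins, fell from 69.3, 101.2 and 80.7 CPM to 27.0, 36.0 and 27.1 CPM (-1.48 ± 0.20, adjusted p = 0.00504). Plxdc2, a transmembrane protein with a plexin-like domain, fell from 145.0, 175.4 and 162.0 CPM to 66.1, 59.2 and 56.7 CPM (-1.41 ± 0.30, adjusted p = 0.0451). Enah, an actin regulator of the Ena/VASP family that acts with Robo receptors, was at 9.04, 5.74 and 9.47 CPM in basal duct and 0.06, 0.69 and 0.76 CPM in basal TEB (-3.88 ± 0.57, adjusted p = 0.00648), and higher in luminal libraries, at 23.9 to 117.3 CPM. In luminal cells 1 of the 83 (1.20%, against 1.41% of all genes, so no more than the background) was called higher and 0 were lower. This was Sdc1, a heparan sulfate proteoglycan, from 63.6 and 109.3 CPM in duct to 270.3, 325.9 and 313.1 CPM in TEB (1.81 ± 0.34, adjusted p = 0.0276). At an unadjusted p below 0.05, 16 were higher and 10 lower. DESeq2 called 5 and 6, with 1247 called over all genes, and limma voom 2 and 1, with 351. Between lineages, 29 were higher and 7 lower in basal cells of ducts (43.4%, against 22.3% of all genes) and 29 higher and 13 lower in TEBs (50.6%, against 25.1%).

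Named below are the genes first and second in each list of partners by fitted log2 fold change between lineages, of which Ngef was lower in basal cells. Dpysl5 and its relatives Dpysl2 and Dpysl3 are also named, chosen after their values were seen. Dpysl5, a relative of the collapsin response mediators that relay semaphorin signals, was at 0 to 1.40 CPM in basal and 11.8 to 47.0 CPM in luminal libraries (-4.23 ± 1.11 and -6.78 ± 1.21, adjusted p = 0.0162 and 0.00127). Dpysl2 and Dpysl3 ran the other way. Dpysl2 was at 20.6 to 70.3 CPM in basal and 1.05 to 11.8 CPM in luminal libraries, and Dpysl3 at 45.6 to 145.0 and 0.29 to 1.43 CPM. Flrt2, a ligand of Unc5 receptors, was at least 113-fold higher in basal than luminal duct (adjusted p = 0.00274) and differed by 6.75 ± 1.22 in TEBs (adjusted p = 0.00184). Mcam, a cell adhesion molecule that has been described as a netrin-1 receptor, was at 115.3 to 180.7 CPM in basal and 6.49 to 17.1 CPM in luminal libraries (3.20 ± 0.29 and 4.27 ± 0.26, adjusted p = 1.36e-05 and 4.89e-07). Anks1b, Nrcam, Dpysl4, Flrt1 and Ntng2 were called higher in basal cells in at least 1 structure, at levels of 0 to 29.2 CPM in basal libraries and 2.30 CPM or less in luminal ones. Dab2, an endocytic adaptor related to Dab1, was higher in basal cells in both (2.97 ± 0.70 and 2.46 ± 0.59, adjusted p = 0.00930 and 0.00846). Ngef, a signalling partner of EphA receptors, was lower in basal cells in both (-3.18 ± 1.01 and -3.29 ± 0.97, adjusted p = 0.0414 and 0.0262), at 0 to 3.92 CPM in basal and 19.2 to 24.3 CPM in luminal libraries.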

How the data were processed

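RNA-seq counts of sorted basal and luminal cells from TEBs and ducts were analysed in 11 libraries. Per the paper's methods, about 10 ng of RNA was used with the TruSeq RNA v2 protocol and 80 bp paired-end reads were sequenced, and the authors aligned them to mm10 with Rsubread and counted fragments per Entrez gene with its inbuilt RefSeq annotation. That kit is known not to mark strand. The submitters' processing notes name featureCounts. The deposited values are raw counts, not normalized, and 25275 of 27179 identifiers (93.0%) had a symbol. Guidance genes were matched by symbol. The families and the lists of partners and markers were chosen with earlier results of these data known.

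The filterByExpr function (10 counts as minimum, 15 in total) kept 17370 genes, and TMM was used for scaling. The paper names estimateDisp and glmFit of edgeR, and here edgeR's quasi-likelihood test (edgeR 4.0.16, R 4.3.3) was run in 1 model of 4 groups, with Benjamini-Hochberg adjustment at 0.05. Each standard error was taken from the fold change and its F statistic, as |log2 fold change| over the root of F. Alternatives were DESeq2 1.42.0, limma voom 3.58.1, other scalings, no filter, only the groups compared, a replicate block and left-out libraries. The fit was also run on counts simulated from its own estimate of the spread, for TEB against duct in basal cells only. No result given here rests on that run. RPKM was computed from the gene lengths in the count table, and promoters are from RefSeq.

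Named were the guidance genes called between TEB and duct or in the interaction, the 5 largest per family among those called between lineages, the highest per length in each family, the 5 lowest p in TEB against duct for each lineage, Sema3b, and partners by like rules. Others were named after their values were seen, as high in 1 library, neighbours, or not called. Total counts ran from 27989137 to 49221436, and limits for a count of 0 are 3 counts, which cover counting error only.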

Additional observations from a re-analysis of the deposited data

Results flagged for a closer look

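The change of Ephb6 from duct to TEB differed between the lineages by the interaction test. Its fitted values had opposite directions, and of these only the basal fall was called on its own by edgeR's quasi-likelihood test. The difference of the log2 fold changes, basal minus luminal, was -2.62 ± 0.37 (adjusted p = 0.0127, edgeR's quasi-likelihood test), with -1.51 in basal and 1.11 in luminal cells, and duct and TEB libraries did not overlap in either lineage. It was called under 14 of 19 alternatives, with values of -3.09 to -2.46 and adjusted p of 3.07e-07 to 0.0812. It was lost without basal duct replicate 1 (-2.66, adjusted p = 0.0584), basal TEB replicate 3 (-2.58, adjusted p = 0.0516), luminal TEB replicate 1 (-2.69, adjusted p = 0.0504) or luminal TEB replicate 3 (-2.62, adjusted p = 0.0630), and with library size alone (-3.09, adjusted p = 0.0812). No group held enough libraries to look for single libraries far from the rest.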

How the results depend on the processing

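Counts of guidance genes called between lineages stayed within 1.5 times of 38 under every alternative, at 33 to 42 in ducts and 30 to 45 in TEBs. Between TEB and duct they did not. In basal cells (1 called), library size alone gave 0, DESeq2 7, limma voom 5 and leaving out both libraries of highest mitochondrial share 2. In luminal cells (2 called), library size alone gave 0, DESeq2 11, limma voom 1, the replicate block 1, and 4 without both libraries of highest mitochondrial share or without basal duct 2 and luminal duct 3 together, the last chosen after seeing the data. In the interaction (1 called), library size alone gave 0, no filter 2, DESeq2 12, and these joint omissions 3 and 4. Leaving out 1 library gave 0 to 2 in basal cells, 0 to 6 in luminal cells and 0 to 5 in the interaction, against 34 to 40 and 31 to 39 for the lineages in ducts and TEBs. The cause was not tested. Omissions that take out a luminal duct library leave the other alone in its group.

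Among single genes, 1 value reversed. Sema5a in luminal cells, at -0.91 from duct to TEB, became 4.40 without luminal duct replicate 1, the library with its higher count. That omission leaves luminal duct replicate 3 alone in its group. Over single omissions the value of Sema5a ran from -1.80 to 4.40. Scaling by library size alone moved the median of all genes from -0.03 to -0.16 in basal and from 0.04 to 0.42 in luminal cells, and from 0.04 to -0.35 between lineages in TEBs. All genes called in basal cells numbered 230, and 57 under library size alone, 874 by DESeq2 and 601 by limma voom. In luminal cells, 245 became 10, 1247 and 351 in the same order, 603 with only the groups compared, 125 under the replicate block and 372 without the libraries of highest mitochondrial share. In the interaction, 77 became 15, 696 and 95, with 141 without the filter, 46 under the block and 198 without those libraries. Single omissions gave 59 to 399, 37 to 1305 and 7 to 753. Same-numbered libraries share only a number in the labels, and they were not treated as pairs. Their deviations from the group means correlated at 0.06 to 0.12 between basal TEB and duct, and at -0.07 to 0.16 over all comparisons. These correlations do not decide whether the libraries are pairs. The block left 1, 1, 36, 37 and 1 guidance genes called in basal, luminal, duct, TEB and interaction tests, with Plxna2 in luminal cells at 1.76 (adjusted p = 0.0624). As a hint only, 6 of 6 basal samples correlated best with their own number, as did 5 of 6 TEB samples compared between lineages. With 2 luminal duct libraries and 27989137 counts in the shallowest library, differences in genes with few counts rest on little data.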
